A study of Rattus norvegicus with 3 samples.

Results

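The enzymes of glycolysis were followed across 3 rat expression arrays, labelled 0.0 h, 0.1 h and 1.0 h. The family was taken as 10 genes, Gapdh, Aldoa, Aldoc, Eno1, Eno2, Pkm, Ldha, Ldhb, Pgk1 and Hk1, and a gene was read from every probe set that the platform annotation gives to that gene alone. The annotation did so for 7 of the 10, with 13 probe sets, out of 4736 genes and 7006 such probe sets on the array. Pgk1 had 3 probe sets, Aldoc, Eno1, Ldhb and Hk1 had 2 each, and Aldoa and Pkm had 1. Gapdh and Ldha were given only together with other gene symbols (apart from control probe sets for GAPDH), Eno2 had no probe set under its symbol, and none of these 3 is given a value as a member.

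The arrays each carry a time label, and for each of them the labels give both the pineal gland and the adrenal medulla as source. The labels name no treatment, strain, age or number of animals, so the time label is all that they give to tell the 3 groups apart, and whether 0.1 h is a true time is not settled by them. With 1 array at each label no difference has a replicate check or a test, and precision is limited by that number. Fewer cells of a type and less RNA per cell cannot be told apart in such samples.

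Glycolysis splits glucose into pyruvate in the cytosol and makes ATP without oxygen. Hexokinase traps glucose as its phosphate, aldolase cuts the sugar, glyceraldehyde-3-phosphate dehydrogenase, phosphoglycerate kinase, enolase and pyruvate kinase carry the pieces to pyruvate, and lactate dehydrogenase interconverts pyruvate and lactate. Most steps have several isozymes with tissue preferences: Aldoa is the muscle and general form of aldolase and Aldoc the brain form, Eno1 the general enolase and Eno2 the neuronal one, and Ldhb encodes the heart type subunit of lactate dehydrogenase. Many of these genes are textbook targets of the hypoxia-inducible factors.

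An intensity here is the brightness of a probe set on a linear scale after the arrays were brought to a common level, and differences are taken between arrays for 1 probe set. Where a probe set is called bright, the word refers to its signal and not to how abundant a transcript is beside another. The floor, an intensity of 262.9, is the 40th percentile of all values, and a difference was counted only where both arrays were above it. Of the 13 probe sets, 11 were above the floor on all 3 arrays. The exceptions were the only Aldoa probe set and 1 of the 3 for Pgk1, each below the floor at 0.0 h. Over all probe sets other than controls, between 58.8% and 60.9% lay above the floor on an array.

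Hk1 and Ldhb were the genes whose probe sets shared a direction in every comparison and differed most between arrays. Both were lowest at 1.0 h. Both were highest at 0.1 h, for Ldhb by a margin that reversed with the spike-in controls made equal. Their promoters, the 300 bases around the annotated start, are shown for that reason. The sequences are from RefSeq on the build GRCr8, which lists 2 starts for Hk1, and every sequence shown is on the minus strand. Capitals mark ACGTG, the core letters of the hypoxia response element, and GGGCGG, the GC box, on either strand.
Hk1, start at chr20:30842023-30842322: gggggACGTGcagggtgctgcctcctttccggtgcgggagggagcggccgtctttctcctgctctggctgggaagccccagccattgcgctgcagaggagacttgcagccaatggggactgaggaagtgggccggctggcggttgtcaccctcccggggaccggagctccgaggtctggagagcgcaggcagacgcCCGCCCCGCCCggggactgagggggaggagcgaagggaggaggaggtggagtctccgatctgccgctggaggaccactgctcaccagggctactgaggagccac
Hk1, start at chr20:30874765-30875064: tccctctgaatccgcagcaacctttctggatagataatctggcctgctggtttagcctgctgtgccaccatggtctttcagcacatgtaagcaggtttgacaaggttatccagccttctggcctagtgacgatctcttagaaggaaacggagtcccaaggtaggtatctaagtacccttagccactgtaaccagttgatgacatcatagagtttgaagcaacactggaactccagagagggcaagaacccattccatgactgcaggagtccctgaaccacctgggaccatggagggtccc
Ldhb, chr4:177177359-177177658: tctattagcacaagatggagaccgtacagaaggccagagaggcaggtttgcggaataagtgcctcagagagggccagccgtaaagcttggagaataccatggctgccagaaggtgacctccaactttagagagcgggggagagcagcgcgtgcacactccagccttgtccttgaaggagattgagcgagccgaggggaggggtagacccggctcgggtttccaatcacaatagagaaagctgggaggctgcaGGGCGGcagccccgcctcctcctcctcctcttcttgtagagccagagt

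The first Hk1 window held ACGTG 1 time and the GC box 2 times, and the second held neither. The Ldhb window held the GC box 1 time and no ACGTG. RefSeq gave 13 such windows for 9 of the 10 family genes and none for Pgk1. ACGTG, searched on both strands, occurred in 7 of these 13 windows, against 19.3% of all 33469 promoter windows of the same length. The GC box occurred in 8 of 13, against 33.1%. CACGTG, the E box, which contains ACGTG, occurred in 1 of 13, that of Ldha, against 6.42%. The family windows were between 50.7% and 70.7% G and C, where the median of all windows was 51.7%. These matches describe letters and not binding.

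**Figure D1:**
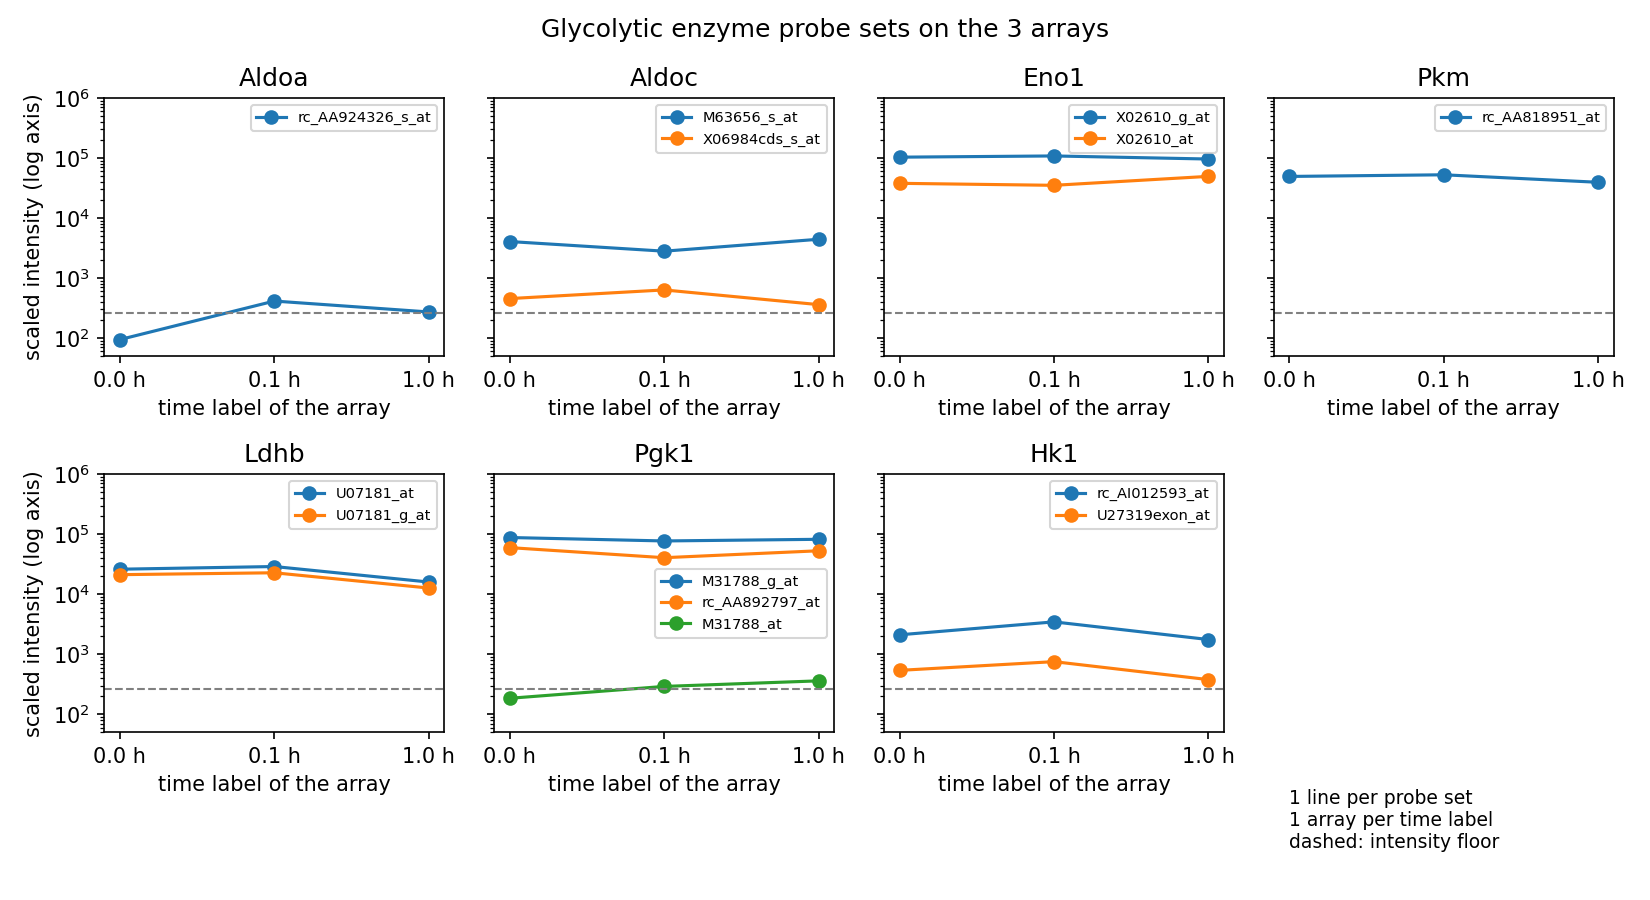
Scaled intensity (log axis) of each of the 13 probe sets on the 0.0 h, 0.1 h and 1.0 h arrays, 1 panel per gene and 1 line per probe set, with the time labels evenly spaced and the floor of 262.9 dashed. Both lines of Hk1 peak at 0.1 h and both lines of Ldhb are lowest at 1.0 h, while the lines of Aldoc run opposite ways.

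Hexokinase 1, which starts glycolysis and is the main hexokinase of brain and red cells, was brighter at 0.1 h than on either other array on both probe sets. The probe set rc_AI012593_at read 2105, 3458 and 1756 at 0.0 h, 0.1 h and 1.0 h. The probe set U27319exon_at read 538.4, 752.1 and 377.5. Both were thus highest at 0.1 h and lowest at 1.0 h. From 0.0 h to 0.1 h the log2 differences were 0.72 and 0.48. From 0.1 h to 1.0 h they were -0.98 and -0.99, so the 1.0 h array was 1.97-fold and 1.99-fold lower, just short of 2-fold. The direction of every Hk1 difference was the same under the 4 other scalings tried, and the smallest of the differences between 0.1 h and 1.0 h was -0.51, with the spike-in controls made equal. The array also carries control probe sets for hexokinase, whose names give no isozyme. The 3' control read 456.6, 240.4 and 279.2, above the floor at 0.0 h and 1.0 h only, and was highest at 0.0 h. The middle control was below the floor on all 3 arrays, and the 5' control, at 262.8, 139.2 and 268.1, was above it only at 1.0 h. All 3 controls were lowest at 0.1 h and below the floor there, where both Hk1 probe sets were highest.

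Lactate dehydrogenase B, the subunit that favours turning lactate into pyruvate, was lower at 1.0 h. The probe set U07181_at read 26054, 28887 and 15935, and U07181_g_at read 21138, 22734 and 12660. The names show that both were built from 1 sequence record, so they are not independent. The 0.0 h and 0.1 h values lay close together, and the 1.0 h value stood below both. Against 0.0 h the log2 differences at 1.0 h were -0.71 and -0.74, which is 1.64-fold and 1.67-fold lower. Against 0.1 h they were -0.86 and -0.84. All 4 stayed below 0 under the other scalings, between -0.38 and -0.77. The small differences between 0.1 h and 0.0 h, 0.15 and 0.11, became -0.12 and -0.17 with the spike-in controls made equal.

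Some cell type markers had the order of Hk1 and Ldhb, highest at 0.1 h and lowest at 1.0 h, and others did not. Of 8 pinealocyte markers with a probe set, 6 were above the floor on all 3 arrays. The summed intensity of all 8 was 58310, 69583 and 50831 at 0.0 h, 0.1 h and 1.0 h. Of those 6, 3 had this order, Pdc, Sag and Gnb3, while Tph1, the brightest, was lowest at 0.1 h. Without Tph1 the sum was 36237, 52620 and 28188. Brain neuron markers, of which 3 of 8 were above the floor on all 3 arrays and 3 on none, summed to 6904, 9984 and 5041, a sum set by Snap25, the 1 of those 3 with this order. Without it the neuron sum was 1427, 1919 and 1496, no longer lowest at 1.0 h, and Syt1 and Slc17a7 were below the floor throughout. Leukocyte markers, 6 of 8 above the floor on all arrays, summed to 23452, 31259 and 14650, and here Spp1 alone set the order. Without Spp1 they summed to 5198, 8076 and 8070, and 5 of the 6 were higher at 1.0 h than at 0.0 h. Of 8 chromaffin cell markers 4 were below the floor on every array. These were Slc18a1, Slc18a2, Th and Dbh, the last 2 the defining enzymes of noradrenaline synthesis. Pnmt, Ddc, Chgb and Npy were above it on all 3, and of these Pnmt and Ddc had the order of Hk1 and Ldhb. The sum of the chromaffin list was 85806, 82680 and 63332, highest at 0.0 h, and without Chgb it was 21286, 21622 and 14942. Most of the sum came from Chgb and Ddc, at 64520 and 19644 at 0.0 h. Which cells gave the Chgb and Ddc signal was not tested. Of 3 erythroid markers Alas2 alone had the order. The part of these markers in the Hk1 and Ldhb differences was not tested. None of 6 adrenal cortex markers was above the floor on all 3 arrays.

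Pyruvate kinase, Pkm, which makes pyruvate and ATP in the last step, had the same order at a smaller size. Its probe set rc_AA818951_at read 49369, 52586 and 39447. The 1.0 h array was lowest, with a log2 difference of -0.32 from 0.0 h and of -0.41 from 0.1 h, the latter turning to 0.054 with the spike-in controls made equal. The difference between 0.1 h and 0.0 h, 0.091, turned to -0.18 in the same way.

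Phosphoglycerate kinase 1, Pgk1, which makes the first ATP of the pathway, was lowest at 0.1 h on its bright probe sets. The probe set rc_AA892797_at read 59662, 40528 and 52842, and M31788_g_at read 87888, 77040 and 82062. Both were highest at 0.0 h. The log2 differences between 0.1 h and 0.0 h were -0.56 and -0.19, and they stayed below 0 with quantile and cyclic loess normalisation. The deposited values and the spike-in setting only lower differences in this comparison, so they could not turn these above 0. The differences between 1.0 h and 0.0 h, -0.18 and -0.10, turned to 0.02 and 0.10 with the spike-in controls made equal. The third probe set, M31788_at, read 184.5, 290.7 and 360.0, below the floor at 0.0 h and above it at the later labels. Against the floor its 0.1 h value was higher by at least 1.11-fold, and its 1.0 h value by at least 1.37-fold. M31788_g_at, from the same sequence record, did not have this order.

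Enolase 1, Eno1, which makes phosphoenolpyruvate, differed least on the probe set X02610_g_at. The probe set X02610_g_at read 103365, 108334 and 96282, all 3 within 1.13-fold of one another, and the direction of each of its differences changed with the scaling. X02610_at, from the same sequence record, read 37909, 35115 and 49503 and was highest at 1.0 h. Its log2 difference between 1.0 h and 0.1 h was 0.50 where that of X02610_g_at was -0.17, so the probe sets disagreed in direction there and in both other comparisons, but not with the spike-in controls made equal.

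The aldolases were the least settled. For Aldoc, M63656_s_at read 4064, 2808 and 4435 and was lowest at 0.1 h. X06984cds_s_at read 455.8, 635.3 and 361.5 and was highest at 0.1 h. Their log2 differences between 1.0 h and 0.1 h were 0.66 and -0.81, a gap of 1.47, and they opposed each other in all 3 comparisons under all 5 scalings. No direction can be given for Aldoc. For Aldoa, rc_AA924326_s_at read 94.6, 414.5 and 272.9, below the floor at 0.0 h and above it on the later arrays. Against the floor its 0.1 h value was higher by at least 1.58-fold, and its 1.0 h value by at least 1.04-fold. Skeletal muscle markers, of which 1 of 9 was above the floor on all 3 arrays and 6 on none, Acta1 among them, summed to 1930, 2816 and 3242, also lowest at 0.0 h. The 1 above it throughout, Myh1, read 1033, 1418 and 1841. Ckm, Acta1 and Tnnt3 were likewise lowest at 0.0 h, but Myh2, Tnnc2, Pvalb, Tnni2 and Myh4 were not. Astrocyte markers, of which 4 of 5 were above the floor on all 3 arrays, summed to 69604, 75595 and 71887, lowest at 0.0 h as well. Of those 4, Glul and S100b were lowest at 0.0 h, but Slc1a2 and Slc1a3 were highest there. The part of these markers in the Aldoa value was not tested.

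Between 0.1 h and 0.0 h no member passed 2-fold. None of the 11 probe sets measured on both arrays was at least 2-fold higher or lower, where 6.18% and 4.34% of all 4742 measured probe sets were. At 1.5-fold, 1 was higher, the Hk1 probe set rc_AI012593_at, against 16.7% of all, and none was lower, against 13.6%. The median log2 difference of the family was 0.09, against 0.01 over all probe sets, and it was -0.18 with the spike-in controls made equal. Of the 11, 7 were above 0 and 4 below, and 8 lay within 0.53, the SD of the log2 differences taken across all probe sets. With the spike-in controls made equal, 3 were above 0 and 8 below. With quantile normalisation 5 were above 0 and 6 below, with a median of -0.025.

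Between 1.0 h and 0.0 h, again, none of the 11 measured probe sets was at least 2-fold apart, against 2.93% higher and 2.53% lower of all 4775. At 1.5-fold none was higher, against 11.1%, and 2 were lower, both for Ldhb, against 10.9%. The median was -0.26, with 9 of 11 below 0, against 0.02 over all probe sets, and 8 lay within the SD of 0.44. With the spike-in controls made equal the median was -0.066, 6 of 11 were below 0, and neither Ldhb probe set reached 1.5-fold. This comparison shares the 0.0 h array with the one before it and the 1.0 h array with the next.

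Between 1.0 h and 0.1 h the lowest log2 differences were those of Hk1, under each of the 5 scalings. All 13 probe sets were measured, and none was at least 2-fold higher or lower, against 3.91% and 5.46% of 4832. At 1.5-fold, 1 was higher, the Aldoc probe set M63656_s_at, against 14.3%, and 6 were lower, against 16.9%: both for Hk1, both for Ldhb, X06984cds_s_at for Aldoc and the Aldoa probe set. The 6 come from 4 genes. With the spike-in controls made equal the counts at 1.5-fold became 4 higher and 0 lower. The median was -0.41, with 8 of 13 below 0, against -0.01 over all probe sets, and 6 lay within the SD of 0.56. The median was 0.054 with the spike-in controls made equal and -0.13 or -0.16 with quantile or cyclic loess normalisation or a floor at the 60th percentile. Under all of these but the spike-in setting the Aldoa probe set fell below the floor and was not counted. The floor at the 60th percentile also left out X06984cds_s_at for Aldoc, M31788_at for Pgk1 and U27319exon_at for Hk1. With Aldoa kept, quantile and cyclic loess normalisation gave -0.23 and -0.30.

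**Figure D2:**
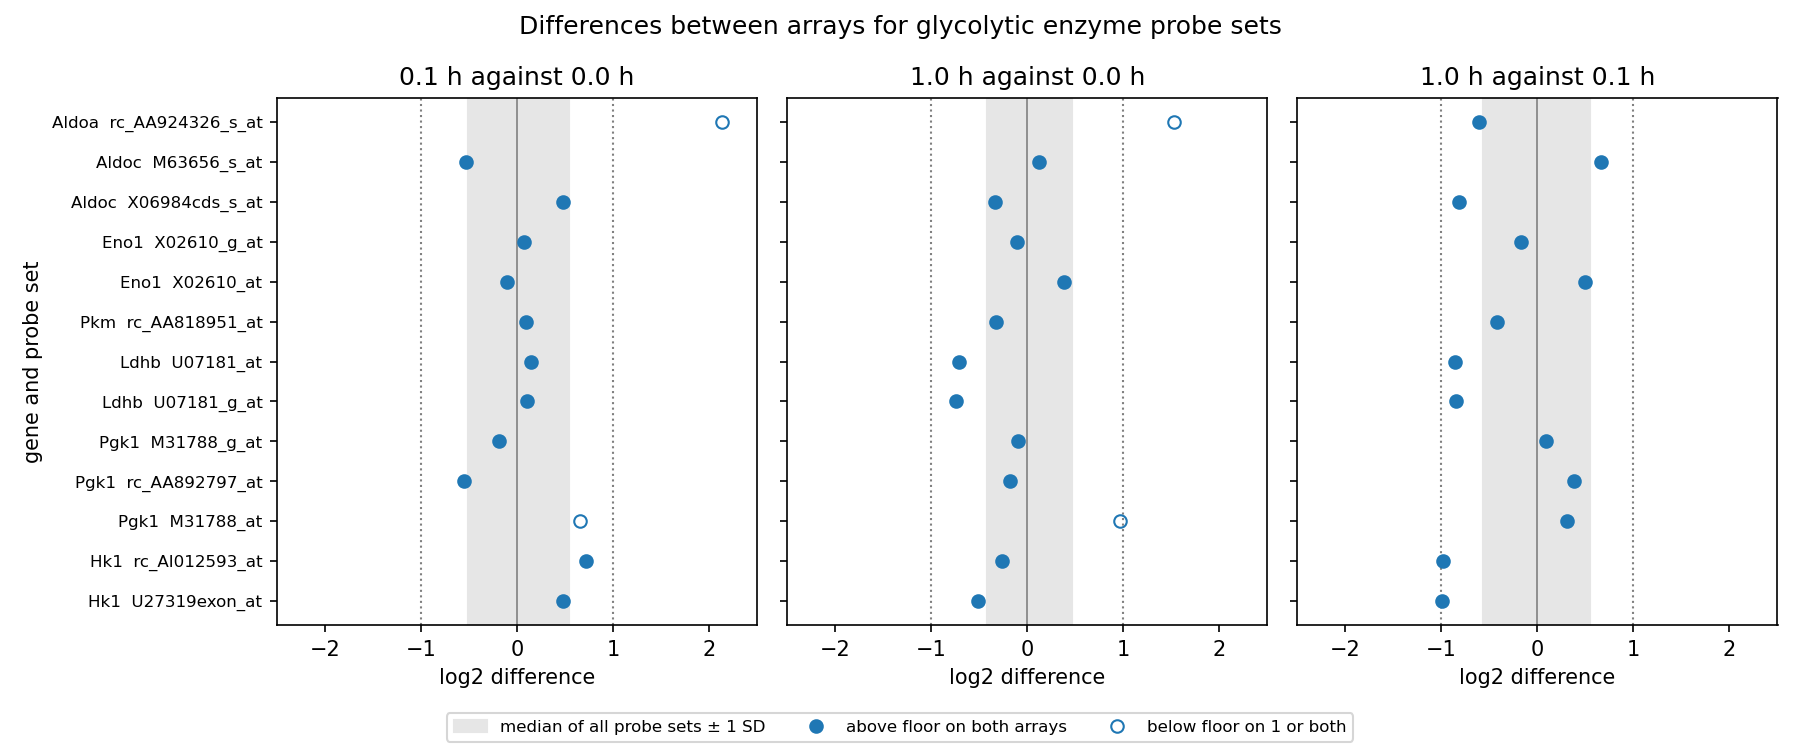
Log2 differences (horizontal axis) of the 13 probe sets in the 3 comparisons, filled where both arrays were above the floor and open where not, with dotted lines at 2-fold and a grey band of 1 SD around the median of all probe sets. Filled points stay inside the dotted lines, and in the comparison of 1.0 h with 0.1 h both Hk1 points lie almost on the lower line, at -0.98 and -0.99.

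The 0.1 h array gave the highest value on 7 and the lowest on 4 of the 11 probe sets above the floor throughout, the 1.0 h array the lowest on 7 and the highest on 2, and the 0.0 h array the highest on 2 and the lowest on none. With quantile normalisation the 0.1 h array was highest on 5 and lowest on 4, the 0.0 h array was highest on 4, and the 1.0 h tally was unchanged. With the spike-in controls made equal, the 0.1 h array was highest on 3 and lowest on 6. The 1.0 h array was then highest on 5 and lowest on 5, and the 0.0 h array highest on 3. The 9 spike-in hybridisation controls had mean log2 differences of 0.27 between 0.1 h and 0.0 h, -0.20 between 1.0 h and 0.0 h and -0.47 between 1.0 h and 0.1 h, which is the shift that scaling to them takes away from every probe set. Over all probe sets the 2-fold counts of higher and lower were 293 and 206, 140 and 121, and 189 and 264 in these comparisons, and became 134 and 462, 261 and 63, and 798 and 60 with the spike-in controls made equal. The GAPDH control probe sets, which read the transcript from its 5' end, its middle and its 3' end, had log2 differences of 0.01, -0.16 and -0.38 between 1.0 h and 0.1 h, so the size of the difference depended on the place in the transcript. Between 0.1 h and 0.0 h they were 0.03, 0.24 and 0.31, and between 1.0 h and 0.0 h 0.04, 0.08 and -0.08. The ratio of the 3' to the 5' control, which rises as RNA is broken down, was 15.3, 18.6 and 14.1 for GAPDH and 10.4, 17.8 and 44.4 for beta-actin, whose 5' control was below the floor at 1.0 h. The part of RNA quality in the differences was not tested.

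Other genes of glucose metabolism were read from lists named by pathway, each gene from its brightest probe set. Among all genes read this way, 5.65% were at least 2-fold higher and 4.71% lower between 0.1 h and 0.0 h, 2.41% and 2.61% between 1.0 h and 0.0 h, and 4.11% and 5.03% between 1.0 h and 0.1 h.

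The other glycolytic enzymes, 6 measured of 9 with a probe set, had medians of 0.00, -0.22 and -0.27 in these 3 comparisons, against 0.00, 0.01 and 0.00 over all genes, and the last of the list's medians turned above 0 once the spike-in shift was taken away. The 1 at least 2-fold apart was Pfkm, the muscle form of phosphofructokinase, which commits sugar to glycolysis. It read 5903, 3012 and 2923 and was 2.02-fold lower at 1.0 h than at 0.0 h. Under the 4 other scalings the log2 difference of -1.01 lay between -0.82 and -0.99, short of 2-fold. Its other probe set was below the floor at 0.0 h and above it later, the opposite order. Pgam1, phosphoglycerate mutase, read 92932, 101555 and 78123 on S63233_at, the order seen for Ldhb and Pkm. Neither of its other probe sets shared it. S63233_g_at, from the same sequence record, was lowest at 0.0 h, and rc_AI169417_s_at was lowest at 0.1 h. Pfkp, the platelet form of phosphofructokinase, read 15163, 15361 and 11699.

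Among transporters, 2 of 6 measured were at least 2-fold higher at 0.1 h than at 0.0 h. Slc16a3, a carrier that exports lactate, read 1219, 2587 and 1913, 2.12-fold higher at 0.1 h than at 0.0 h, and its log2 difference of 1.09 was 0.81 with the spike-in controls made equal. Slc5a1, a sodium and glucose cotransporter, read 424.2, 1161 and 461.0, but its other probe set read 533.9, 418.3 and 432.1 and was lower at 0.1 h than at 0.0 h. The brightest probe set of Slc2a1, the general glucose transporter, read 20904, 20224 and 18428, nearly level.

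Genes that gate glycolysis or the entry of pyruvate into mitochondria spread more widely, between -1.06 and 1.96 for 14 measured genes at 0.1 h against 0.0 h. Mpc1, part of the carrier that brings pyruvate into mitochondria, read 9806, 38222 and 18639, which is 3.90-fold higher at 0.1 h than at 0.0 h and 2.05-fold lower at 1.0 h than at 0.1 h. The latter log2 difference, -1.04, was between -0.57 and -0.96 under the 4 other scalings and so no longer 2-fold. Dlat, the acetyltransferase of the pyruvate dehydrogenase complex, read 17197, 31506 and 10894, and was 2.89-fold lower at 1.0 h than at 0.1 h. Its other probe sets had log2 differences of -1.15 and -0.53 there, in the same direction. Dlat thus had the order of Hk1, highest at 0.1 h and lowest at 1.0 h. Pdhx, which binds a further subunit into the same complex, went the other way and read 534.0, 272.6 and 566.8, with the 0.1 h value close to the floor. Txnip, which restrains glucose uptake, read 26601, 12765 and 17579, 2.08-fold lower at 0.1 h than at 0.0 h, while its second probe set was level there, with a log2 difference of -0.04. Pfkfb1, which makes the activator of phosphofructokinase, read 689.8, 1796 and 1304, 2.60-fold higher at 0.1 h on the 1 of its 4 probe sets above the floor throughout.

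The list of shuttles, glycogen and the pentose phosphate pathway had none of 14 measured genes at least 2-fold apart in any comparison, with medians of -0.09, -0.12 and 0.03. Mdh1, cytosolic malate dehydrogenase, and Taldo1, transaldolase, had the strongest signals, at 68084, 95710 and 80248 and at 82517, 70441 and 57687. Of 4 gluconeogenesis genes with a probe set, only Slc37a4, the glucose 6-phosphate carrier, was above the floor, and it read 2329, 3173 and 1655. Pck1, Fbp1 and Fbp2 were below the floor on all 3 arrays.

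The hypoxia response list holds genes regulated by the hypoxia-inducible factors and the factors themselves, and shares Slc2a1, Pfkfb3 and Pdk1 with the lists above. All 9 genes measured at 0.1 h and 0.0 h were lower at 0.1 h on their brightest probe sets, where 50.3% of all 2993 genes were below 0. Slc2a1 was lower by a log2 difference of only -0.048. The same held with quantile and cyclic loess normalisation. The deposited values and the spike-in setting lower every difference in this comparison, so they could not have changed it. The median was -0.34, and 1 of the 9 was at least 2-fold lower. That was Bnip3l, a mitophagy receptor, at 34466, 16591 and 26121. Egln3, an oxygen sensing prolyl hydroxylase, read 3212, 1808 and 1818, but its second probe set was higher at 0.1 h by 0.68. Hif1a itself read 698.9, 521.5 and 710.9, lower at 0.1 h by a log2 difference of -0.42. Hmox1, haem oxygenase, read 31627, 24951 and 28866, and its dimmer probe set was higher at 0.1 h, by 0.33. For Vegfa the dimmer rc_AA850734_at was level, at 0.003, while L20913_s_at fell from 516.9 at 0.0 h to below the floor at 0.1 h. The dimmer probe set of Slc2a1 was lower at 0.1 h, with a log2 difference of -0.48.

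**Figure D3:**
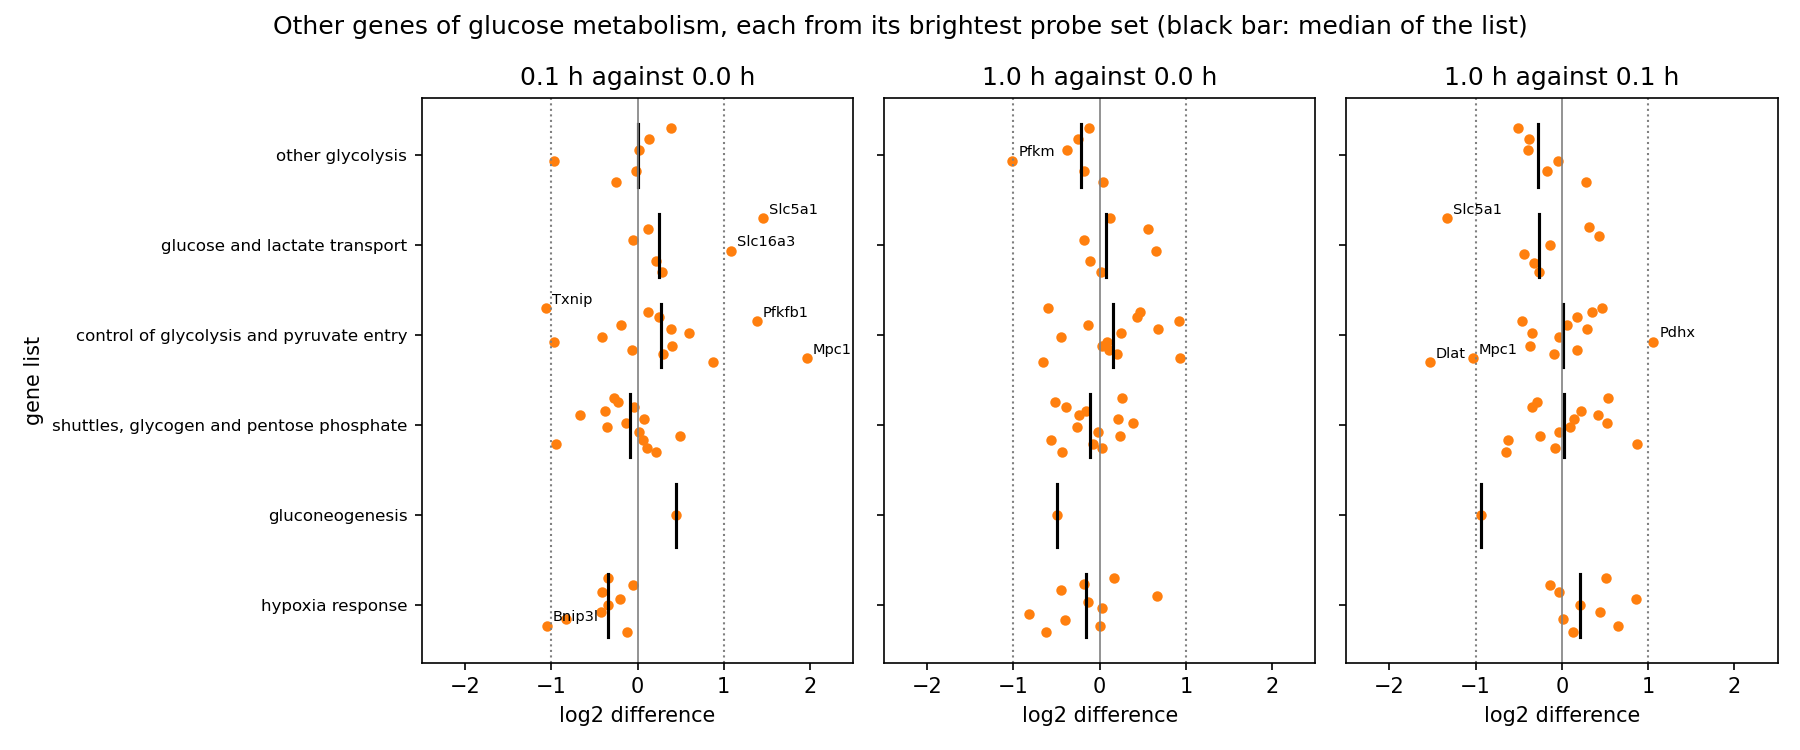
Log2 differences (horizontal axis) of the genes in the 6 pathway lists in the 3 comparisons, 1 point per gene above the floor on both arrays, read from its brightest probe set, with the list's median as a black bar, dotted lines at 2-fold and names for genes beyond them. All points of the hypoxia response list lie left of 0 between 0.1 h and 0.0 h, with a median of -0.34.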

How the data were processed

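The authors deposited 1 linear intensity per probe set for each of 3 arrays. How these were summarised is not given in the sources used here. Without their highest and lowest 2% of values, the deposited intensities had means of 2503.7, 2503.9 and 2503.7. Probe sets were named through the platform annotation (308 with several symbols were not used, and 1426 had none). Of the 7006 with 1 symbol, 6985 were matched by gene ID to RefSeq genes of GRCr8, with 0 symbols changed.

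Log2 intensities were scaled to a common array median, with a floor at their 40th percentile, and arrays were then shifted so that probe sets above it throughout had equal medians, in total by 0.008, 0.040 and -0.048. The code was tested on simulated arrays. Python 3.11.15, numpy 2.4.6 and pandas 2.3.3 were used, with R 4.3.3 and limma 3.58.1 for the quantile and cyclic loess alternatives. SDs across probe sets come from the median absolute deviation.

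Alternatives were 4 other scalings, floors at the 20th and 60th percentile, each gene's brightest or mean probe set and a 1.5-fold threshold. Counts at 1.5-fold and array orders under each scaling, and marker sums without the largest marker, were chosen after seeing the data. The members and lists were chosen with earlier results of these data known. All family probe sets are printed. From other lists, up to 3 genes in each direction at least 2-fold apart, or the 2 brightest, qualified for naming. Hypoxia genes beyond that, Pfkp, Slc2a1, Slc37a4 and genes below the floor were named after their values were seen.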

Additional observations from a re-analysis of the deposited data

Results flagged for a closer look

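Control probe sets for GAPDH and hexokinase are outside the family's readings, and all of them except the middle one for hexokinase lay above the floor on at least 1 array. The GAPDH controls on the transcript strand peaked at 2712 at the 5' end, 11654 in the middle and 49962 at the 3' end. The GAPDH controls for the opposite strand were also above the floor on all 3 arrays, with highest intensities of 1535 at the 5' end, 844.9 in the middle and 565.4 at the 3' end. The 5' one read 783.3, 1535 and 916.1 at 0.0 h, 0.1 h and 1.0 h. The hexokinase controls reached 268.1 at the 5' end and 456.6 at the 3' end.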

How the results depend on the processing

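No paired analysis was possible because each time label has 1 array. With the spike-in controls made equal, the family's median log2 difference moved from 0.09 to -0.18 between 0.1 h and 0.0 h and from -0.41 to 0.054 between 1.0 h and 0.1 h, 1 probe set was then at least 2-fold higher at 1.0 h than at 0.1 h (Aldoc M63656_s_at, 1.13), and 9 of 35 single differences changed sign. The median between 1.0 h and 0.1 h was -0.13 with quantile normalisation, -0.16 with cyclic loess and -0.16 for the higher floor, at the 60th percentile. Cyclic loess also counted 1 probe set (Hk1 U27319exon_at) as 2-fold lower there. The floor at the 20th percentile put 1 probe set past 2-fold in each of 3 counts. The Aldoa probe set was higher at 0.1 h than at 0.0 h and higher at 1.0 h than at 0.0 h. Hk1 U27319exon_at was lower at 1.0 h than at 0.1 h. At 1.5-fold the counts, in the order higher and lower, were 1 and 0, 0 and 2, and 1 and 6. Quantile normalisation changed the sign of 2 of 34 differences, and the deposited values, cyclic loess and both floors of none. Reading each gene from its brightest probe set or their mean moved none of the medians by as much as 0.2 in log2. Over all probe sets, the 2-fold counts in the 3 comparisons were 528 and 490, 354 and 368, and 441 and 527 with the lower floor, and 172 and 131, 64 and 64, and 102 and 167 with the higher one. Apart from these floors, which change how many probe sets are measured, the cause was not tested. Values near the floor are limited by signal over background.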
